A study of Mus musculus with 120 samples.

Results

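The Cyp2d genes encode cytochromes P450 and lie in a cluster on mouse chromosome 15. Here 6 of them were followed through a liver expression panel, Cyp2d9, Cyp2d10, Cyp2d13, Cyp2d22, Cyp2d26 and Cyp2d40. All probe sets annotated to these 6 genes alone were taken, which gave 8 of the 45037 probe sets on the array (2 each for Cyp2d13 and Cyp2d22 and 1 for each other gene), and all 8 were among the 22551 that passed the filter on low values. The 6 genes were chosen by their values in earlier work on these same arrays, where some differed from B6 in MSM and in B6-Chr15MSM. Their differences in these 2 strains are therefore given as a description without a test, and tests are confined to the 27 other consomic strains.

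The panel held livers of 10-week-old mice labelled male, taken after 4 h of fasting, of 30 strains with 2 animals a strain and 2 Affymetrix mouse genome arrays an animal (120 arrays). C57BL/6J, written B6, was the control. MSM is the donor strain, and each of the 28 consomic strains carries on the B6 background the MSM copy of 1 chromosome, of its centromeric (C) or telomeric (T) part, or of the mitochondrial genome (B6-mtMSM). B6-Chr15MSM carries the MSM chromosome 15 and with it the MSM copy of the Cyp2d cluster, MSM carries it together with all other MSM chromosomes, and the 27 other strains and B6 share the B6 copy. No source used here gives the boundaries of the C and T parts, and an animal was read from the number in the sample title.

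Cytochromes P450 are heme enzymes of the endoplasmic reticulum that insert oxygen into drugs, steroids and other lipophilic compounds, with electrons from cytochrome P450 reductase or cytochrome b5. The Cyp2d subfamily is small in humans, where CYP2D6 handles many prescribed drugs, and has expanded in rodents by tandem duplication. Cyp2d9 is known as a testosterone 16-alpha-hydroxylase that adult male mouse liver expresses above female liver under pulsatile growth hormone, and Cyp2d22 has been discussed as the mouse counterpart of CYP2D6. In the RefSeq table of GRCm38.p6 the cluster has 19 Cyp2d entries, 8 protein-coding and 11 pseudogenes, with Cyp2d22, Cyp2d10, Cyp2d9, Cyp2d13, Cyp2d40 and Cyp2d26 following each other in this order. That table lists Cyp2d13 as a transcribed pseudogene. Of the entries outside the 6 genes only Cyp2d12 and Cyp2d34 had a probe set, and the one for Cyp2d34 did not pass the filter. Probe sequences were not used here, so how much signal a probe set takes from a near-identical neighbour was not tested, and the values belong to probe sets rather than to single genes.

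The 150 bases before the annotated start of 4 of the 6 genes (RefSeq, GRCm38.p6) are shown because these genes share one cluster but not one pattern across the strains. They are the B6 reference sequence, at chr15:82452227-82452376 on the plus strand for Cyp2d9 and, on the minus strand, at chr15:82407195-82407344 for Cyp2d10, chr15:82764123-82764272 for Cyp2d40 and chr15:82794246-82794395 for Cyp2d26. Capitals mark every match to TATAAA, the TATA box, and to CAAAG, the core of a site for the hepatocyte factor HNF4A, on either strand.
Cyp2d9: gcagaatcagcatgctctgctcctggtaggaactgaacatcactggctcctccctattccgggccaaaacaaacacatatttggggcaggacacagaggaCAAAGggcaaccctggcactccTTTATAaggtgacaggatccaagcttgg
Cyp2d10: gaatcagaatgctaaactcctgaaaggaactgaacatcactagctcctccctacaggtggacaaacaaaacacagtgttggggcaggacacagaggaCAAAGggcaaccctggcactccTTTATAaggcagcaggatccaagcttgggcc
Cyp2d40: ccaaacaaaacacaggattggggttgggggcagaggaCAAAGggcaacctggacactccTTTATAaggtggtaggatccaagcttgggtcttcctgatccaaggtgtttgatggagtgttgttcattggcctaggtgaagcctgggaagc
Cyp2d26: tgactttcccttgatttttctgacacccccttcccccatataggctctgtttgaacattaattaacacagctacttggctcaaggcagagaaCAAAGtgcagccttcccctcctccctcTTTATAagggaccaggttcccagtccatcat
All 4 windows hold both motifs, against 7.57% (TATAAA) and 31.5% (CAAAG) of the 32851 promoters in the table over the same 150 bases, both strands searched. The motif starts lie 22 bases apart in Cyp2d9, Cyp2d10 and Cyp2d40 and 27 bases apart in Cyp2d26. In Cyp2d9, Cyp2d10 and Cyp2d26 the TATA match begins at -28, -31 and -31 relative to the start, and in Cyp2d40 at -91. TTCNNNGAA, the palindrome bound by STAT5, is in none of the 4 windows (4.09% of all promoters hold it), and CCAAT is in 1 of 4, that of Cyp2d40 (24.5% of all). Over the 250 bases before the start, Cyp2d9 and Cyp2d10 are identical at 84.8% of the window, and the other pairs at 57.2% to 64.0%. These matches describe letters in the reference and are not measured binding.

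The deposited values were read as log2 from their range, and their spread differs widely between probe sets. The residual SD between animals of a strain ran from 0.0823 thousandths of a log2 unit for Cyp2d10 to 36.9 for Cyp2d9, a 448-fold span. Without 1 animal described below, labelled male 1 of B6-Chr7TMSM, Cyp2d9 had 20.65 and the largest was 31.54 for Cyp2d26. What was done to the values is not stated, so a difference is not read as a fold change. Sizes are also not set against each other between probe sets in log2 units. Differences are given in thousandths of a log2 unit (thousandths) and in residual SDs of the same probe set, called SD. The SE of a difference between 2 strains was close to 1 SD throughout. As a check of the tissue, all 9 measured hepatocyte markers of 10 passed the filter on low values.

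Among the 60 animals, 2 stood apart and touch results on the Cyp2d genes. The animal labelled male 1 of B6-Chr7TMSM went against its label. Its 3 probe sets for Xist, the RNA of the inactive X chromosome, lay above those of all 59 other animals (on one of them 7.88 against 6.76 to 6.82), and 7 of the 9 probe sets for the Y-linked Eif2s3y, Uty and Kdm5d lay below all 59 (for Eif2s3y 6.76 against 6.89 to 6.93). Both of its arrays read alike (Xist 7.87 and 7.88), and these genes were looked up after the Cyp2d9 value of this animal had been seen. Male 1 of B6-Chr9MSM had a median absolute deviation of 1.58 SD over all tested probe sets, against 0.62 for the other male of that strain and 1.45 and 1.55 for the MSM males. It was the lowest of all 60 animals in 15.2% of the tested probe sets and the highest in 11.3%. Results that rest on these animals are given with and without them.

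Cyp2d26 was far lower in both strains that carry the MSM cluster. The 2 B6 males read 9.71 and 9.71, the B6-Chr15MSM males 8.77 and 8.72, and the MSM males 8.51 and 8.48, while the 54 animals of the 27 other strains ran from 9.61 through a median of 9.72 to 9.76. No B6-Chr15MSM or MSM male overlapped any animal with the B6 cluster, and the MSM males lay below the B6-Chr15MSM males. The difference from B6 was -1217 ± 32.8 thousandths (SE, n = 2) in MSM and -967 ± 32.8 in B6-Chr15MSM, or -36.8 and -29.2 SD. By size in SD it was the largest of all 22551 tested probe sets in B6-Chr15MSM and rank 6 in MSM. B6-Chr15MSM thus showed 79.4% of the MSM difference, 77.4% to 81.4% when any 1 male of the 3 strains was left out, and MSM lay 250 thousandths (7.57 SD) further down.

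Cyp2d13 went the other way. For 1425365_a_at the B6 males read 8.920 and 8.897, the B6-Chr15MSM males 9.001 and 9.002 and the MSM males 9.024 and 9.017, above the 8.830 to 8.933 of the 54 other animals. For 1431803_at the same order gave 8.496 and 8.484, then 8.600 and 8.604, then 8.608 and 8.597, against 8.431 to 8.506. Both probe sets thus separated the animals with the MSM cluster from all others, and on both the B6 males sat inside the range of the 27 strains. The difference from B6 was 112 ± 15.4 thousandths in MSM and 93.0 ± 15.4 in B6-Chr15MSM for 1425365_a_at (7.21 and 5.97 SD). For 1431803_at it was 113 ± 13.1 and 112 ± 13.1 (8.55 and 8.51 SD). B6-Chr15MSM showed 82.7% and 99.6% of the MSM difference, with ranges of 80.2% to 85.4% and 94.9% to 104.7% when any 1 male was left out.

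Cyp2d22 separated the 2 strains that share the MSM cluster. On 1419039_at the B6-Chr15MSM males lay at -4.49 and -5.31 SD from the mean of the 27 strains and below every one of their 54 animals, whereas the MSM males lay 1.51 and 0.31 SD above it, among them. On 1419040_at the B6-Chr15MSM males lay at -6.92 and -7.16 SD and the MSM males at -2.81 and -4.80 SD, with B6 at 0.37 and 0.94 SD. Both B6-Chr15MSM males and 1 of the 2 MSM males were below all 54 animals on that probe set, and without male 1 of B6-Chr9MSM and the animal labelled male 1 of B6-Chr7TMSM both MSM males were below the 52 left. Against B6 the differences on 1419039_at were 0.275 ± 0.385 thousandths in MSM (0.71 SD) and -1.98 ± 0.385 in B6-Chr15MSM (-5.10 SD). On 1419040_at they were -6.01 ± 1.34 (-4.46 SD) and -10.4 ± 1.34 (-7.70 SD). MSM lay above B6-Chr15MSM on both probe sets, by 5.81 and 3.23 SD. The values of both strains depend on the scaling. After quantile normalization the differences on 1419039_at were 1.72 thousandths in MSM (1.60 SD) and -1.53 in B6-Chr15MSM (-1.43 SD), where the residual SD went from 0.389 to 1.07 thousandths. On 1419040_at they were -0.566 (-0.37 SD) and -8.55 (-5.56 SD).

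Cyp2d10, Cyp2d9 and Cyp2d40 lay closer to B6 in these 2 strains. Cyp2d10, the neighbour of Cyp2d9 with the most similar promoter, stood at 0.18 and 0.62 SD in the B6 males, -1.39 and -0.78 SD in the B6-Chr15MSM males and -1.74 and -2.02 SD in the MSM males, all inside the range of the 54 animals (-4.45 to 1.35 SD). Its differences from B6 were -2.28 SD in MSM and -1.48 SD in B6-Chr15MSM. Cyp2d9 read 10.194 and 10.199 in B6, 10.199 and 10.202 in B6-Chr15MSM and 10.190 and 10.193 in MSM, with differences of -4.80 ± 36.5 thousandths in MSM and 4.54 ± 36.5 in B6-Chr15MSM. Cyp2d40 differed from B6 by -1.58 SD in MSM and 0.17 SD in B6-Chr15MSM, and 1 B6-Chr15MSM male lay above all 54 animals at 2.16 SD. After quantile normalization its MSM difference turned from -0.345 to 0.718 thousandths. Over the family, both B6-Chr15MSM males were outside the range of the 54 animals on the same side in 5 of 8 probe sets (1.3% of all tested, and 122 of the 823 on chromosome 15) and both MSM males in 3 of 8 (15.3% of all tested), counts that the choice of the genes used. MSM sequence at the probes and a change in RNA level cannot be told apart in these 2 strains, which both carry the MSM copy.

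Tests were then made among the 27 strains with the B6 cluster. Against B6, 0 of 216 combinations of probe set and strain passed an adjusted p of 0.05 (limma, Benjamini-Hochberg over the 22551 probe sets of a strain), where 0.35% of all combinations passed, and 7 had an unadjusted p below 0.05. The F test over the 27 strain means called 0 of 8 probe sets, with adjusted p from 0.46 for Cyp2d22 1419039_at to 0.946 for Cyp2d40, where 5.96% of all probe sets were called. None of the 8 had an unadjusted p below 0.05 in it. The 6 contrasts of a telomeric with a centromeric strain gave 0 calls in 48 (0.186% of all), with 1 unadjusted p below 0.05. At these background shares few or no calls come from so few tests, so the zeros are not a result about the Cyp2d genes. With all 120 arrays in the fit and the animal as a random block, 5 combinations against B6 and 6 of the 8 F tests passed. That fit changes the unit and also uses 1 correlation for all probe sets.

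The order of the 27 strains is therefore given as a description. The highest mean of both Cyp2d13 probe sets was that of B6-Chr14MSM, with males at 1.87 and 1.98 SD on 1425365_a_at and at 1.12 and 1.39 SD on 1431803_at. B6-Chr4MSM was highest for Cyp2d9, Cyp2d10 and Cyp2d40, with males at 0.51 and 0.65 SD, 0.98 and 1.17 SD, and 1.21 and 1.33 SD. B6-Chr16MSM was highest for Cyp2d22 1419040_at (males at 1.28 and 2.70 SD) and B6-Chr12TMSM for Cyp2d26 (1.41 and 1.35 SD). The lowest mean was that of B6-Chr7MSM for Cyp2d26 and Cyp2d40, where its males read -0.79 and -2.32 SD and -0.01 and -2.50 SD. B6-Chr17MSM was lowest for Cyp2d22 1419039_at, with males at -1.30 and -2.25 SD. None of the strains named in this order passed against the other 26. The remaining lowest means were those of B6-Chr9MSM (Cyp2d10 and both Cyp2d13 probe sets), B6-Chr7TMSM (Cyp2d9) and B6-Chr6TMSM (Cyp2d22 1419040_at, males at -0.29 and -2.42 SD). The animals of neighbouring strains overlapped in all 26 steps of the order for 7 probe sets and in all but 3 steps for Cyp2d13 1425365_a_at. The same count over all tested probe sets was not made, so it is not read as a result about the Cyp2d genes.

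Set against the other 26 strains, 3 of 216 combinations passed (0.708% of all), all of them lower. Cyp2d10 was lower in B6-Chr9MSM, at -2.73 ± 0.71 SD (SE, limma, adjusted p = 0.0257), with its males at -4.45 and -0.82 SD. This call was lost after quantile normalization, where Cyp2d10 had next to no spread left between animals (residual SD 9.16e-13 thousandths). Cyp2d13 1425365_a_at was lower in the same strain, at -2.40 ± 0.71 SD (adjusted p = 0.0475), with its males at -4.62 and 0.00 SD, and this call was lost with no filter on low values, with a filter at the 60th percentile and after quantile normalization. In B6-Chr9MSM 1.9% of all tested probe sets were called lower. In both cases 1 male was low and the other lay within 1 SD of the mean of the 27 strains. That low animal, male 1, was the lowest of the 54 in 6 of the 8 Cyp2d probe sets and the lowest or next to lowest in all 8. These 8 are not independent of each other. The same counts among the 54 were not made over all tested probe sets. They are therefore not read as a result about the Cyp2d genes, and the shares that follow are among the 60 instead. Over all tested probe sets this animal was the lowest of the 60 in 15.2% and the highest in 11.3%. Without it the differences were -1.03 SD for Cyp2d10 and -0.11 SD for Cyp2d13 (adjusted p = 0.9995 for both).

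Male 1 of B6-Chr9MSM also differed in markers of zones and cell types. The median over 8 pericentral hepatocyte markers, the zone around the central vein where many P450 genes are highest, was -1.89 SD in it, and the medians were 2.93 SD for 4 stellate, 2.35 SD for 6 Kupffer and 2.09 SD for 5 endothelial markers. Male 2 of B6-Chr7MSM, the lowest of the 54 for Cyp2d40 and next to lowest for Cyp2d10 and both Cyp2d13 probe sets, had a pericentral median of -1.9 SD and a stellate median of 2.14 SD. Its Kupffer and endothelial medians were 0.37 and 1.12 SD. The periportal median was 1.11 SD in this animal and -0.67 SD in male 1 of B6-Chr9MSM, so the 2 animals differed there. The median over the hepatocyte markers was 1.27 and 1.02 SD in them. High Kupffer and endothelial medians were also seen in male 2 of B6-Chr5MSM (2.42 and 2.31 SD) and male 2 of B6-Chr2CMSM (2.35 and 2 SD). Neither of these was lowest or next to lowest of the 54 in any Cyp2d probe set. The part of these markers in the low Cyp2d values was not tested, and fewer cells of a type and less RNA per cell cannot be told apart in whole liver.

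The third call was Cyp2d9 in B6-Chr7TMSM. Its 2 animals read 9.950 and 10.189, where the other 53 animals of the 27 strains ran from 10.119 to 10.203 and the B6-Chr7MSM and B6-Chr7CMSM males read 10.196, 10.158, 10.202 and 10.197. The low value is that of the animal whose Xist and Y-linked values go against its label, and both of its arrays were low (9.958 and 9.943). The strain differed from the other 26 by -113 ± 26.3 thousandths (-3.07 SD, adjusted p = 0.0288; 0.306% of all probe sets were called lower in this strain). Without that animal the difference was 5.87 thousandths (0.28 SD) with an adjusted p of 0.9996, and the residual SD of Cyp2d9 went from 36.9 to 20.65 thousandths. With that animal and male 1 of B6-Chr9MSM both left out, 0 of the 216 combinations passed, where 0.657% of all did.

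In the same animal other genes of the sex-biased liver program stood with Cyp2d9. Of 6 tested genes known as male-biased other than Cyp2d9, 3 were below all 59 other animals, where this animal was the lowest of the 60 in 3.77% and the highest in 2.52% of all tested probe sets. Cyp4a12a, a fatty acid hydroxylase, read 7.31 against 8.56 to 8.96. Elovl3, a fatty acid elongase, read 8.56 against 8.66 to 9.44, and Cyp7b1, an oxysterol hydroxylase, 9.89 against 9.96 to 10.33. Hsd3b5, a steroid dehydrogenase, read 7.59 inside a wide range of 7.33 to 9.89, and Slco1a1 and Mup3 also lay inside their ranges. Of the 2 tested female-biased genes, Cyp2b9 read 7.95 against 6.89 to 7.54 and the Cux2 probe set counted here lay inside its range. Of the other 2 Cux2 probe sets, 1 read 7.081 against 7.077 to 7.078 in all other animals, and 1 read 7.670, equal to the highest of the others at this rounding. Alas2, the erythroid form of the first heme synthesis enzyme, was at -6.08 SD in this animal, and similarly low in both B6-ChrXTMSM males (-5.39 and -5.53 SD) and both MSM males (-5.40 and -5.81 SD), and its part was not tested.

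Across the 27 strain means r between probe sets of the family was positive in all 28 pairs, from 0.28 to 0.93. Not all pairs passed. Cyp2d26 with Cyp2d9 (r = 0.28) and with Cyp2d40 (r = 0.29) did not (permutation test, adjusted p = 0.169 and 0.152 for r). The pairs given below are mostly ones that passed. Each mean is of 2 animals, the SD of these means was 0.58 to 0.86 SD, and the F test called none of these probe sets. Variation between strains and variation between single animals therefore cannot be told apart in the pairs below. The 2 Cyp2d13 probe sets had r = 0.93 and rho = 0.91 (permutation test, adjusted p = 0.00014 for r over the 28 pairs), and r = 0.89 without the 2 strains farthest from the median. The 2 Cyp2d22 probe sets had r = 0.72 and rho = 0.76 (permutation test, adjusted p = 0.000168), and r = 0.69 without the 2 farthest. Between genes, Cyp2d13 1425365_a_at and Cyp2d10 had r = 0.80 and rho = 0.76 (permutation test, adjusted p = 0.00014; 0.70 without the 2 farthest), and Cyp2d13 1431803_at and Cyp2d40 had r = 0.75 and rho = 0.81 (permutation test, adjusted p = 0.000168; 0.73 without the 2 farthest). Cyp2d26 followed Cyp2d22 1419040_at at r = 0.64 and rho = 0.65 (permutation test, adjusted p = 0.00172; 0.53 without the 2 farthest). Cyp2d26 and Cyp2d13 are the genes that went opposite ways with the MSM cluster. For 1425365_a_at they had r = 0.45 and rho = 0.50 (permutation test, adjusted p = 0.0441). There r was 0.18 without B6-Chr7MSM and B6-Chr9MSM, so that relation rests on these 2 strains. For 1431803_at r was 0.41 and rho 0.31, which did not pass (permutation test, adjusted p = 0.0556 for r). Without the same 2 strains r was 0.02. Without the 2 animals that stood apart, r was 0.90 for the 2 Cyp2d13 probe sets, 0.66 for Cyp2d13 1425365_a_at with Cyp2d10, 0.71 for Cyp2d13 1431803_at with Cyp2d40 and 0.63 for Cyp2d26 with Cyp2d22 1419040_at, while Cyp2d10 with the Cyp2d22 probe sets went from 0.40 and 0.38 to 0.11 and 0.11. The points share the arrays and their normalization. All r rest on the deposited scale, and after quantile normalization Cyp2d10 had next to no spread left between animals (residual SD 9.16e-13 thousandths).

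The other genes most like each Cyp2d gene over the 27 strain means are given as a description. For Cyp2d26 they were Cyp2c54 (r = 0.75), another drug-metabolising P450, Aldh1a1 (0.72), which makes retinoic acid, and Krt42 (0.72). For Cyp2d22 1419039_at they were Wnt16 (0.80), G6pc3 (0.77), a glucose-6-phosphatase, and Ildr2 (0.73). For Cyp2d13 they were Cyp2d10 (0.80), Apoc3 (0.77), an inhibitor of lipoprotein lipase, and Tmem25 (0.77). For Cyp2d10 they were Sult2a8 (0.82), a bile acid sulfotransferase, Edrf1 (0.81) and Cyp2d13 1431803_at (0.81), and for Cyp2d40 they were Dmgdh (0.78), of choline breakdown, Cyp2d13 1431803_at (0.75) and Nsmf (0.72). Over all tested probe sets the median r with these probe sets was 0.01 to 0.03 and the 95th percentile 0.36 to 0.50. For Cyp2d9 they were Cyp4a12a (0.92), Elovl3 (0.81) and Nat8 (0.73), and these fell to 0.64, 0.61 and 0.68 without the animal labelled male 1 of B6-Chr7TMSM. Without male 1 of B6-Chr9MSM, Sult2a8 fell to 0.58 with Cyp2d10 and Tmem25 to 0.51 with Cyp2d13. With both animals left out, Aldh1a1 was at 0.55 with Cyp2d26 and Apoc3 at 0.61 with Cyp2d13. Edrf1 with Cyp2d10 and Dmgdh with Cyp2d40 were then both at 0.66. Krt42 with Cyp2d26 and Ildr2 with Cyp2d22 1419039_at rose to 0.75 and 0.79.

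Genes around the pathway were counted from lists of P450 electron donors, heme synthesis, regulators of liver P450 genes and the growth hormone and sex-biased program, together with the remaining Cyp2d genes. In B6-Chr15MSM 0 of their 44 tested genes passed in either direction (limma, Benjamini-Hochberg; 0.0976% of all tested probe sets were called higher and 0.226% lower). In MSM 5 were higher and 6 lower (13.1% and 9.66% of all). Nr1i2, the xenobiotic receptor PXR, was higher in MSM by 10.4 SD (adjusted p = 1.607e-09), and Ahr, the dioxin receptor, by 3.03 SD (adjusted p = 0.0252). Mup3, a major urinary protein, was lower by 9.89 SD (adjusted p = 4.601e-09) and Hsd3b5 by 3.25 SD (adjusted p = 0.0164). Cebpb (2.69 SD), the paralog Cyp2d12 (2.81 SD) and Igf1 of the growth hormone list (2.98 SD) were also higher. Ghr (-4.32 SD), Jak2 (-3.43 SD) and the heme synthesis genes Fech (-3.43 SD) and Ppox (-3.15 SD) were also lower. The 5 tested electron donors were Cyb5a, Cyb5b, Cyb5r1, Cyb5r2 and Cyb5r3, so cytochrome P450 reductase was not among them. None of these 5 passed, with differences from -1.93 SD (Cyb5r1) to 2.28 SD (Cyb5r2). The median difference was between -0.75 SD (heme synthesis) and 0.30 SD (electron donors) in the 4 pathway lists, against 0.53 SD over all tested probe sets. The counts in MSM depend on the scaling, since quantile normalization gave 17 higher and 3 lower, and leaving out 1 male gave 1 to 2 higher and 2 to 5 lower.

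The neighbours of the cluster were counted too. Of the 10 tested genes on each side, 1 of 20 passed in B6-Chr15MSM, Smdt1, a subunit of the mitochondrial calcium uniporter, which was lower by 5.15 SD (adjusted p = 0.00577). In MSM 3 were higher and 2 lower. Smdt1 was not among the 5 that passed in MSM. Over chromosome 15 as a whole 6.08% of 823 tested probe sets were called in B6-Chr15MSM, against 0.0539% of 18555 on other chromosomes. No list of cell type markers had a call in B6-Chr15MSM, while in MSM 8 of the 9 lists had at least 1. Lower in MSM were 3 of 6 Kupffer cell markers (Clec4f, Csf1r and Vsig4), Fgb (hepatocyte), Oat (pericentral), Clec4g (endothelium), Lrat (stellate) and Alas2 (erythroid), where 9.66% of all tested probe sets were lower. Higher were Cyp2f2 (periportal), Lyve1 (endothelium), Rgs5 (stellate) and Epcam (cholangiocyte), where 13.1% of all were higher. The part of these cells in the MSM values was not tested.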

How the data were processed

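Total liver RNA of 60 animals was hybridised to 120 single-colour arrays. The authors deposited 1 value per probe set and array on a scale read as log2 from its range; the labels used here state no summary method, normalization or log base. Array medians agreed closely (7.416 to 7.417), so nothing was rescaled. Arrays were mapped to strains by sample titles, and the 2 arrays of an animal were averaged. Whether RNA of an animal was extracted once is not stated, and no batch is given.

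Probe sets with at least 2 animals above the median of all values (7.417) were tested with limma 3.58.1 in R 4.3.3, with 1 mean per strain over 30 strains, 30 residual and 0.576 prior degrees of freedom, and Benjamini-Hochberg adjustment within a contrast (threshold 0.05). The 2 animals of a strain limit the precision. Pairs of probe sets were compared by permutation of the 27 strain means. Symbols come from the platform annotation, 34945 probe sets having 1, 932 several and 9160 none, and promoters and gene order from RefSeq (GRCm38.p6), with identities aligned in Biopython 1.88.

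The genes, lists and tests were chosen with earlier results of these data known. Named were all probe sets of the 6 genes, the 3 genes most like each, and of each list the called genes, at most 4 a contrast. Igf1 of the growth hormone list was named beyond these. Alternatives were quantile normalization, other filters, other units and priors, and left-out animals; leaving out the 2 animals that stand apart was added after seeing the data, as were the Xist and Y-linked genes.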

Additional observations from a re-analysis of the deposited data

Results flagged for a closer look

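Cyp2d9 lay on opposite sides of B6 in MSM and B6-Chr15MSM. Both MSM males lay below both B6 males and both B6-Chr15MSM males above them, by -4.80 ± 36.5 and 4.54 ± 36.5 thousandths of a log2 unit (SE), a difference of -9.33 between the strains. Against the mean of the 27 other strains both were higher, by 12.59 and 21.92 thousandths, so the MSM direction turns with the reference. The difference was not tested, since the gene was chosen on these strains, and both values are far below the residual SD of 36.9 thousandths, which the animal labelled male 1 of B6-Chr7TMSM sets in large part (20.65 without it).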

How the results depend on the processing

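Of 128 recomputed differences of the 8 Cyp2d probe sets from B6 in MSM and B6-Chr15MSM, 119 stayed within 1 residual SD and 9 moved by more, 7 of them under quantile normalization and 2 (Cyp2d40) with the mean of the 27 strains in place of B6. Quantile normalization gave Cyp2d10 differences of nearly 0 in both strains. Against B6 the count of Cyp2d calls in the 27 strains was 0, and 5 with all 120 arrays and the animal as a random block, with 0 under the other planned settings. It was 0 to 7 when 1 male of B6, B6-Chr7TMSM or B6-Chr9MSM was left out, the 7 being those of B6-Chr9MSM without its male 2. Against the other 26 strains the count of 3 became 1 after quantile normalization (Cyp2d9 in B6-Chr7TMSM), 9 with all arrays and the random block, and 0 without both animals that stand apart, a setting added later. It ranged from 1 to 8 when 1 male of B6-Chr7TMSM or B6-Chr9MSM was left out, being 2 without the animal labelled male 1 of B6-Chr7TMSM and 1 without male 1 of B6-Chr9MSM. The F test called 6 of 8 with the random block and 0 to 2 with 1 of those males left out, where the lone animal of a strain is assumed to vary like the others. The T against C contrasts gave 1 call after quantile normalization, Cyp2d9 in B6-Chr7TMSM against B6-Chr7CMSM, and 0 without the animal labelled male 1 of B6-Chr7TMSM. Of the listed pathway genes, 5 higher and 6 lower in MSM became 17 and 3 after quantile normalization and 1 to 2 and 2 to 5 with 1 male of B6 or MSM left out, while B6-Chr15MSM kept 0 in each. The cause of these changes was not tested. No paired analysis was possible because the strains share no animal numbers. With 2 animals a strain, the SE of a difference between 2 strains was close to 1 SD. Even the largest difference from B6 in the 216 combinations, 3.43 SD in size, did not pass an adjusted p of 0.05. Differences of up to about that size could thus go uncalled.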
